A study of Homo sapiens with 4 samples.

Results

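The nuclear-encoded subunits of the mitochondrial respiratory chain were compared between naive and arsenic trioxide (ATO) resistant NB4 cells. Members were chosen by gene name alone, as probes for the NDUFA, NDUFB, NDUFC, NDUFS and NDUFV families, SDHA to SDHD, the UQCR genes, COX4 to COX8 and the ATP5 genes. This gave 122 of the 41000 probes on the array, under 83 gene names. Among them, 5 probes carry a matching name but are not subunits. These are 1 probe of COX4NB, 2 of ATP5S (now DMAC2L) and 2 of ATP5SL, and medians are also given without them where that matters.

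NB4 is an established human cell line from acute promyelocytic leukemia, and ATO is a drug given for this disease. Naive NB4 cells were represented by 2 flasks and the ATO resistant line by 2 flasks, all grown in RPMI medium with fetal bovine serum, on 1-colour Agilent arrays. By the methods, the resistant cells had been kept free of ATO for 1 week before the experiment. The resistant line is called NB4-VM-AsR1 in the labels and NB4-EV-AsR1 in the methods. It was derived in-house from NB4 and is 1 line, so a difference between lines cannot be told apart from the history of that line. All 4 arrays were on 1 slide, with the naive flasks on its first positions and the resistant flasks on its last, so position and line cannot be told apart either. The p-values measure the spread between these flasks.

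Complexes I to IV pass electrons from NADH and succinate to oxygen in the inner mitochondrial membrane. Complex I oxidises NADH, complex II oxidises succinate and is also an enzyme of the citric acid cycle, complex III passes electrons from ubiquinol to cytochrome c, and complex IV reduces oxygen. Complexes I, III and IV pump protons, and complex V (ATP synthase) uses the gradient to make ATP. Complexes I, III, IV and V are assembled from subunits of both the nuclear and the mitochondrial genome, whereas the subunits of complex II are all nuclear. Arsenic reacts with thiol groups, and mitochondria are among its known sites of action in leukemia cells.

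Values are log2 signals after subtraction of the 75th percentile of each array, so that 0 is the level of that percentile. A level of 1 probe is not set against that of another probe. A change is the resistant mean minus the naive mean on this scale, with its standard error (SE) from limma, and a probe was called when its adjusted p was below 0.05 and its change at least 2-fold. In bulk RNA, fewer cells with a transcript and less of it per cell cannot be told apart. Of the members, 117 probes under 80 gene names were tested, each of them well above background on all 4 arrays. The remaining 5, single probes of COX7B2, COX7A1, NDUFA4L2, NDUFS4 and COX6B2, were not well above background on both arrays of either line.

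The arrays were alike in sensitivity, with 27916 to 28238 probes well above background and 458 to 565 saturated. Of 6 promyelocyte genes, 5 were above background on each array by the scanner's test, and their summed level, all 6 included, was 7.02 and 6.84 in the naive flasks and 7.24 and 7.51 in the resistant flasks. That sum rests mostly on MPO, saturated on all 4 arrays, and CTSG, saturated on both resistant arrays. Among the granule genes ELANE (2.49, adjusted p = 0.017, above background on 1 of the 2 naive arrays) and AZU1 (1.17, adjusted p = 0.047) were called higher in the resistant line. The stromal collagen genes were not well above background on any array. Of 3 T cell genes, CD3D, a chain of the T cell receptor complex, was 0.70 and 1.16 in the naive flasks and -7.61 and -7.11 in the resistant flasks, where it was not well above background. The other T cell genes did not follow it: CD2 changed by 1.02 (adjusted p = 0.15) and the 2 CD3E probes by -0.43 and -0.01. The summed level of the 3 was 0.77 and 1.22 in the naive flasks and -3.19 and -2.82 in the resistant flasks, and the part of these marker differences in the results was not tested. Spike-in controls, of which 5 of 10 were usable, were lower by a median of 1.31 on the log2 scale in naive flask 1 than in naive flask 2, a difference that the 75th percentile takes no account of.

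Several promoters of the members hold short words known from the sites of factors that drive respiratory chain genes. They are shown here because the same factors and their coactivator PPARGC1A were measured, with values given among the biogenesis regulators. RefSeq windows of GRCh38.p14, from 250 bases before to 50 after each start, were found for 66 of the 80 subunit genes (80 windows). Letters were searched on both strands. The palindrome bound by NRF1, GCGCA followed by its reverse complement, was in 4 of the 80 windows (5.0%) and in 1.24% of all 35116 windows. The stretches that hold it are printed 5′ to 3′ on the strand of the gene, with the searched letters in capitals here and below.
ATP5C1: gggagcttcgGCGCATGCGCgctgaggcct
NDUFA8: gttgccggatGCGCATGCGCaggcgccgtg
NDUFB4: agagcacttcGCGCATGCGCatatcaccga
SDHD: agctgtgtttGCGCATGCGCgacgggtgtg

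They lie at chr10:7788145-7788174 (plus strand), chr9:122159764-122159793 (minus strand), chr3:120596167-120596196 (plus strand) and chr11:112086753-112086782 (plus strand). CCGGAAGT, the core bound by ETS factors such as GABPA, or its reverse complement, was in 11 windows (13.75%) and in 4.14% of all windows. Of these, 3 are shown for members whose values follow, at chr5:132866577-132866606 (plus strand), chr19:1605561-1605590 (minus strand) and chr11:112086784-112086813 (plus strand).
UQCRQ: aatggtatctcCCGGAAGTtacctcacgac
UQCR: tccaaccctcgCCGGAAGTtactgtaagtg
SDHD: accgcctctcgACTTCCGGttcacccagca

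AAGATGGC, a core bound by YY1, was in 13 windows (16.25%) of 12 genes and in 2.89% of all windows. In most of these it lay within the 50 bases after the start. The windows of NDUFA9 (chr12:4649113-4649142, plus strand), SDHB (chr1:17054004-17054033, minus strand) and UQCRC1 (chr3:48609605-48609634, minus strand) are shown.
NDUFA9: gattgtgggaaAAGATGGCggctgccgcac
SDHB: cgtcaggagccAAGATGGCggcggtggtcg
UQCRC1: actgcagctggAAGATGGCggcgtccgtgg

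CCAATC, the letters of a CCAAT box, was in 17 windows (21.25%) and in 15.1% of all windows. At least 1 of the NRF1, ETS and YY1 words was held by 25 member genes, of which SDHD and ATP5J held more than 1. A match is a description of these letters and not of binding.

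No respiratory chain probe was called between the lines. By limma with Benjamini-Hochberg adjustment, 0 of 117 member probes passed, against 5.27% of the 28216 probes tested (649 higher, 2.3%, and 837 lower, 2.97%). At an unadjusted p below 0.05 there were 2 members, against 19.1% of all probes. No member reached a 2-fold change, against 12.3% of all probes. The smallest adjusted p among members was 0.137. Most members were bright, and bright probes were called less often. Of the 10162 tested probes with a mean above the 75th percentile, 156 were called and 493 reached 2-fold. By limma, 1297 of them had an unadjusted p below 0.05. The 101 members among them had 0 in each of these counts.

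The changes of the members stayed close to 0. They ran from -0.72 to 0.89, with a median of 0.053 and an SD of 0.32, against a median of -0.020 and an SD of 0.95 over all probes. Among the probes with a mean above the 75th percentile of the arrays, a group formed after the values were seen, the SD was 0.30 over 101 members and 0.53 over all 10162. On the resistant side, 66 of the 117 changes were above 0 and 51 below. The median over members was 0.27 under scaling of the arrays to an equal spread, where that over all probes was 0.083, and 0.0093 under normexp background correction, where that over all probes was 0.13, so members lay above the array median under one and below it under the other. The flasks of the lines did not overlap for 40 members (34.2%) and for 52.8% of all probes. The 95% interval lay within a 2-fold change either way for 72 members (61.5%) and for 42.9% of all probes, so for the other members these arrays cannot set a limit of 2-fold. Among the probes with a mean above the 75th percentile, that share was 62.4% of members and 55.7% of all. The share without overlap was 32.7% of members and 49.6% of all in that group. A p that misses the threshold does not show that a subunit was equal in both lines.

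**Figure D1:**
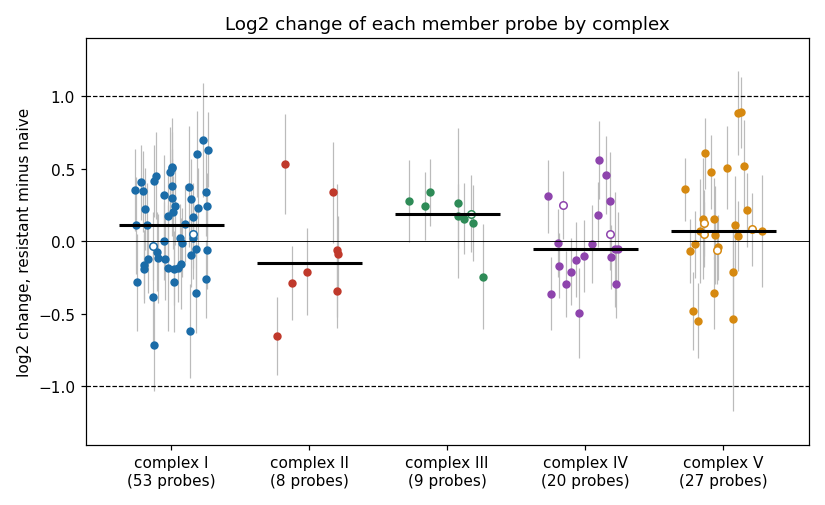
Log2 change (resistant minus naive) of each of the 117 tested member probes, by complex. Points are probes with their SE as grey bars, hollow points were saturated on at least 1 array, black lines are medians and dashed lines mark 2-fold. All points lie between the dashed lines, from -0.72 to 0.89.

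The medians by complex were small. Complex III had the highest median, 0.19 over 9 probes (8 higher), followed by complex I at 0.11 over 53 probes (31 higher) and complex V at 0.070 over 27 probes (18 higher). Complex IV had -0.054 over 20 probes (7 higher) and complex II -0.15 over 8 probes (2 higher). Without the names that are not subunits the medians were -0.055 for complex IV and 0.070 for complex V. All of these medians include probes saturated on at least 1 array. With saturated probes left out, complex III had 0.21 over 8 probes (7 higher) and complex IV -0.079 over 18 probes (5 higher). Complexes I, II and V then had 0.12, -0.15 and 0.070. Complexes were assigned by gene name, so NDUFA4 was counted in complex I and COX7A2L in complex IV throughout. Under scaling to an equal spread, the medians of complexes IV and II became 0.14 and -0.0081, so the sign of complex IV rests on the scaling. Leaving out a flask also turned signs, as complex I was -0.059 without naive flask 2 and -0.0097 without resistant flask 2, complex II 0.13 without naive flask 1, complex IV 0.093 without resistant flask 1 and complex V -0.0076 without resistant flask 2. Complex III stayed above 0 with each flask left out, from 0.088 to 0.37, but without naive flask 1 complex V (0.40) was higher than complex III (0.33).

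In complex I, the core subunits, which bind the flavin and iron-sulfur centres, and the accessory subunits, which surround them, had medians of -0.051 (3 of 9 probes higher) and 0.15 (27 of 42 higher). Against naive flask 1 alone these medians were -0.13 and 0.013, and against naive flask 2 alone 0.25 and 0.32. The lowest gene was NDUFA9, an accessory subunit near the ubiquinone site. Its brighter probe read 3.07 and 2.28 in the naive flasks and 2.04 and 2.09 in the resistant flasks, a change of -0.62 (SE 0.32, adjusted p = 0.38). Both resistant flasks were below both naive flasks, and naive flask 1 stood highest. The other NDUFA9 probe, placed by the array header at chr22:36293685-36293744 of hg19 on the minus strand although the gene is on chromosome 12, changed by -0.72 (SE 0.32, adjusted p = 0.31). Without naive flask 2 both NDUFA9 probes were called lower, at -1.01 and -1.07.

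NDUFA8, an accessory subunit with cysteine motifs of the intermembrane space, whose promoter holds the NRF1 word, read 5.46 and 4.71 in the naive flasks and 4.62 and 4.79 in the resistant flasks. The lines overlapped, and the change was -0.38 (SE 0.32, adjusted p = 0.57). At the other end, NDUFC1, a small membrane subunit, read 4.36 and 3.36 against 4.38 and 4.73, a change of 0.70 (SE 0.39, adjusted p = 0.40). Naive flask 2 alone was low for NDUFC1, while naive flask 1 was close to resistant flask 1. NDUFB10, an accessory subunit of the membrane arm, read 4.12 and 3.84 against 4.42 and 4.79, without overlap, a change of 0.63 (SE 0.26, adjusted p = 0.28). NDUFS6, NDUFB1, NDUFA5 and NDUFB4 followed at 0.60, 0.48, 0.45 and 0.42.

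Complex II has 4 subunits. SDHA carries the flavin, SDHB the iron-sulfur centres, and SDHC and SDHD anchor the enzyme in the membrane. SDHB read 3.08 and 2.55 in the naive flasks and 2.16 and 2.16 in the resistant flasks, a change of -0.65 (SE 0.27, 95% interval -1.34 to 0.03, adjusted p = 0.28). The resistant flasks agreed closely and lay below both naive flasks. SDHA read 3.91 and 3.03 against 4.02 and 3.99 on its brighter probe, a change of 0.53 (SE 0.35, adjusted p = 0.46). For that probe the resistant flasks lay above both naive flasks. It is placed at chr5:1576667-1576726 of hg19 on the minus strand, a position that was not compared with that of the gene. The second SDHA probe changed by 0.34 (SE 0.35), and its lines overlapped. The changes of both SDHA probes were thus opposite in sign to that of SDHB, and none of them was called.

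SDHC, whose probe lies at chr1:161326492-161326551 of hg19, read 1.17 and -0.06 in the naive flasks and 0.73 and 0.26 in the resistant flasks, a change of -0.06 (SE 0.46). Its naive flasks enclosed the resistant ones. SDHD, which holds both an NRF1 and an ETS word in its promoter, read 2.53 and 2.04 against 2.14 and 2.25 on its brightest probe, a change of -0.09 (SE 0.26). Its 4 probes ran from -0.34 to -0.09, and 3 of the 4 are placed on chromosome 1, whereas the gene is on chromosome 11. The probe on the gene's own chromosome, at chr11:111965707-111965766, was the lowest of the 4. In all 8 probes of complex II, naive flask 1 was higher than naive flask 2.

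In complex III the changes ran from -0.24 to 0.34, with an SD of 0.17. UQCRC2, a core protein of the matrix side, read 4.00 and 3.99 in the naive flasks and 4.20 and 4.46 in the resistant flasks, a change of 0.34 (SE 0.23, adjusted p = 0.49). Its naive flasks agreed closely and both resistant flasks were higher. UQCR (now UQCR11), a small membrane subunit with an ETS word in its promoter, read 4.63 and 4.10 against 4.51 and 4.78, a change of 0.28 (SE 0.28). UQCRC1, the partner of UQCRC2, read 3.71 and 3.23 against 3.58 and 3.61, a change of 0.13 (SE 0.26), with overlap.

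UQCRQ, a small subunit next to cytochrome b, was the only complex III probe below 0. It read 5.73 and 4.85 in the naive flasks and 4.86 and 5.22 in the resistant flasks, a change of -0.24 (SE 0.36). The resistant values lay between the naive ones. UQCRFS1, the Rieske iron-sulfur protein, changed by 0.24 and 0.17 on its 2 probes, both of which are placed on chromosome 22 while the gene is on chromosome 19. UQCRH, the hinge protein, was saturated on all 4 arrays and is given no fold.

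**Figure D2:**
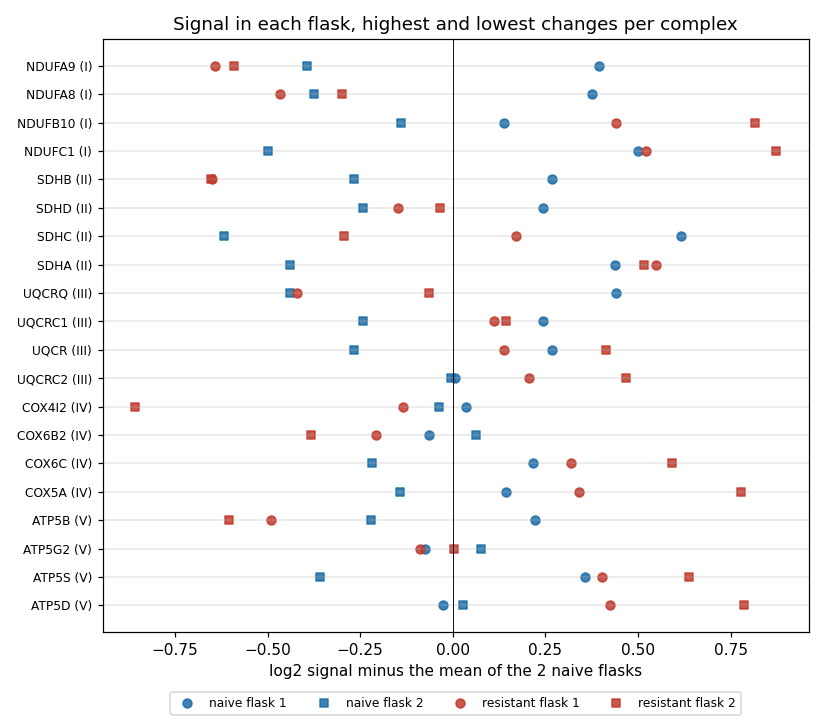
Log2 signal of each flask minus the mean of the 2 naive flasks, for the genes with the 2 highest and 2 lowest changes in each complex (complex in brackets; ATP5S is a matching name that is not a subunit). Blue marks naive and red resistant flasks, circles flask 1 and squares flask 2. For NDUFA9, SDHB, COX4I2, COX6B2 and ATP5B both red marks lie to the left of both blue marks, while for most genes naive flask 1 lies to the right of naive flask 2.

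In complex IV the highest changes were those of COX5A and COX6C, nuclear subunits around the catalytic core. COX5A read 4.27 and 3.99 in the naive flasks and 4.47 and 4.91 in the resistant flasks, a change of 0.56 (SE 0.27, adjusted p = 0.34), without overlap. That probe is placed on chromosome 14 and the gene is on chromosome 15, and the other COX5A probe changed by 0.31. COX6C read 3.68 and 3.25 against 3.78 and 4.06, a change of 0.46 (SE 0.27, adjusted p = 0.42), also without overlap.

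Several complex IV subunits exist as alternative isoforms, a common form and one used in muscle, lung, testis or low oxygen. COX4I2, the form known for lung and low oxygen, was dim but well above background, at -4.73 and -4.80 in the naive flasks and -4.90 and -5.62 in the resistant flasks. Its change was -0.50 (SE 0.31, adjusted p = 0.45), with resistant flask 2 apart from the rest. COX4I1, the common form, read 5.81 and 5.80 against 5.63 and 5.95, a change of -0.01 (SE 0.24). Its lines overlapped, and that probe is placed on chromosome 14 while the gene is on chromosome 16. The other COX4I1 probes changed by -0.10 and -0.30. For the probe at -0.30, placed at chr16:85840266-85840325 of hg19, the lines did not overlap, and it was not called.

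COX6B2, the testis form, read -2.68 and -2.56 in the naive flasks and -2.83 and -3.0 in the resistant flasks, a change of -0.30 (SE 0.23, adjusted p = 0.53), without overlap. COX6B1, the common form, read 3.24 and 3.03 against 3.32 and 3.32, a change of 0.18 (SE 0.22). Neither change of this pair was called, and both turned sign under normexp background correction, to 0.0087 for COX6B2 and -0.00516 for COX6B1. COX6A2, the heart and muscle form, had the widest naive gap of complex IV, at 1.61 and 2.67 against 1.98 and 2.18 in the resistant flasks, a change of -0.06 (SE 0.40). COX6A1, the common form, was saturated on all 4 arrays.

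COX7A2 read 5.91 and 5.83 in the naive flasks and 5.97 and 6.26 in the resistant flasks, and it was saturated on 3 of the 4 arrays. COX7A1, its heart and muscle form, and COX7B2, the testis form of COX7B, were not well above background on any array. COX7B itself read 2.73 and 2.00 against 2.44 and 2.84, a change of 0.28 (SE 0.34), and its second probe changed by -0.17. COX7A2L, a factor of respiratory supercomplexes counted here with the complex IV subunits by its name, read 4.14 and 4.23 against 3.99 and 4.15, a change of -0.11 (SE 0.22). NDUFA4, named for complex I and now known as a subunit of complex IV, read 4.84 and 4.28 against 4.22 and 4.66, a change of -0.12 (SE 0.31), and its low-oxygen relative NDUFA4L2 was not well above background on any array. No probe of an isoform set was called in either direction.

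**Figure D3:**
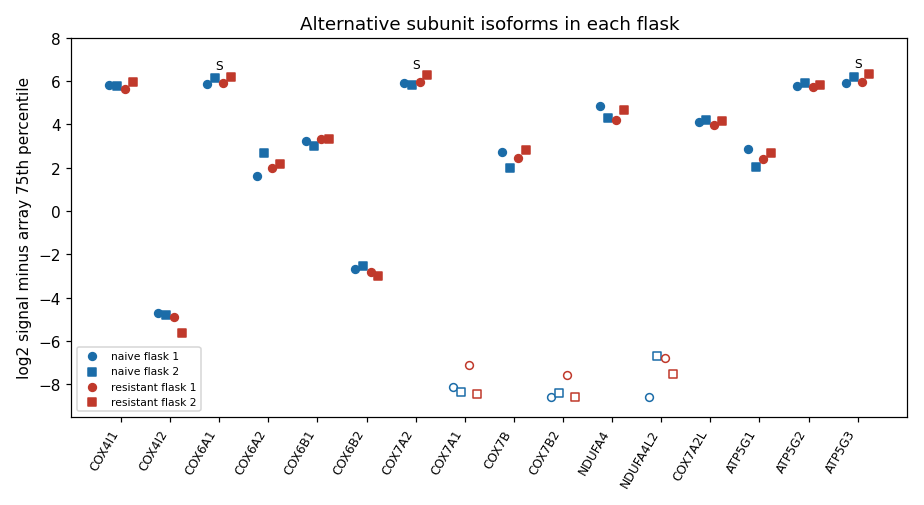
Log2 signal after subtraction of the array 75th percentile for alternative isoforms, 1 probe per gene. Blue marks are naive and red marks resistant flasks, S marks genes saturated on at least 1 array, and hollow marks genes not well above background on any array. Red and blue marks overlap or lie close together for each gene, and heights of different genes are not comparable.

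In ATP synthase, the catalytic head had changes on both sides of 0. ATP5B, the catalytic beta subunit, read 5.47 and 5.02 in the naive flasks and 4.75 and 4.64 in the resistant flasks, a change of -0.55 (SE 0.26, adjusted p = 0.33). Both resistant flasks were below both naive flasks. ATP5D, the delta subunit of the central stalk, read 1.11 and 1.16 against 1.56 and 1.92, a change of 0.60 (SE 0.24, 95% interval -0.01 to 1.22, adjusted p = 0.27), and both resistant flasks were above both naive flasks. ATP5A1, the alpha subunit, changed by 0.04, and ATP5C1, the gamma subunit, whose promoter holds the NRF1 word, also by 0.04.

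The peripheral stalk and membrane subunits had a median of 0.15, with 10 of 11 probes higher in the resistant line. That median was 0.075 against naive flask 1 alone and 0.50 against naive flask 2 alone. The highest was a probe of ATP5F1 (now ATP5PB), the b subunit of the peripheral stalk, at chr1:112005281-112005340 of hg19. This probe was dim, at -4.21 and -4.14 in the naive flasks and -3.48 and -3.09 in the resistant flasks, a change of 0.89 (SE 0.25, adjusted p = 0.137). The flasks did not overlap, but the brighter ATP5F1 probe, at chr1:112003643-112003702, changed by 0.16 (SE 0.28), and this difference of 0.73 was the widest between probes of any member gene. ATP5I, the e subunit of the membrane part, changed by 0.48 and 0.51 on its 2 probes.

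The c subunit, which forms the rotating ring, is encoded by 3 genes with the same mature protein. ATP5G1 read 2.84 and 2.04 in the naive flasks and 2.42 and 2.69 in the resistant flasks, a change of 0.11 (SE 0.34). That probe is placed on chromosome 14, whereas the gene is on chromosome 17. ATP5G2 read 5.76 and 5.92 against 5.75 and 5.84, a change of -0.04 (SE 0.22). The brighter ATP5G3 probe was saturated on all 4 arrays, and its second probe changed by -0.21 (SE 0.32). Of the names that are not subunits, ATP5S changed by 0.52 (SE 0.32) and 0.88 (SE 0.29, adjusted p = 0.19) on its 2 probes. The second of these and the dim ATP5F1 probe were the 2 members with an unadjusted p below 0.05.

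Probes of 1 gene were mostly alike. Of 30 genes with more than 1 tested probe, 26 had all probes on the same side of 0, and the median range between probes was 0.15. In all, 14 member probes are placed by the array header on another chromosome than their gene, and which transcript such a probe measures cannot be told from its position. Positions within the same chromosome were not compared with those of the genes. Saturation on at least 1 array was seen for 9 tested members, 4 of them on all arrays.

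The 2 naive flasks differed from each other for most members. Naive flask 1 was higher than naive flask 2 for 93 of 117 members (79.5%) and for 46.2% of all probes, with a median difference of 0.42 against -0.054. The difference was not particular to the members. In the related lists described below it held for 23 of 27 citric acid cycle probes (median 0.41) and 13 of 15 of other electron transport genes (0.34). Mitochondrial ribosomal proteins had 77 of 109 (0.26) and assembly factors 30 of 48 (0.17). Biogenesis regulators had 14 of 26 (0.038) and carriers, porins and uncoupling proteins 9 of 17 (0.012). Resistant flask 2 was higher than resistant flask 1 for 92 members, by a median of 0.23, and for 53.9% of all probes. For 80 members (68.4%) the difference between the naive flasks was larger than the change between the lines, against 54.1% of all probes. The median change of the members was -0.088 against naive flask 1 and 0.22 against naive flask 2.

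The difference between the naive flasks ran through all complexes, with medians of 0.49 in complex I, 0.59 in complex II, 0.17 in complex III, 0.19 in complex IV and 0.35 in complex V. Among probes with a mean above the 75th percentile the median was 0.026 over all 10162 and 0.42 over the 101 members. The 19 tested probes placed on the mitochondrial chromosome, also counted after the values were seen, had a median of -0.88. Most nuclear subunits were thus higher and most mitochondrial transcripts lower in naive flask 1, the flask whose spike-ins also stood apart, and the part of this in the results was not tested.

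Leaving out a naive flask moved the count of called members from 0 to 3, in opposite directions. Without naive flask 1, the called members were NDUFC1 at 1.20, 1 ATP5S probe at 1.14 and 1 UQCR probe at 1.01, all higher, against 13.2% of all probes called. Without naive flask 2, they were both NDUFA9 probes and 1 ATP5E probe at -1.50, all lower, against 16.1% of all probes. With 1 naive flask, that flask was assumed to vary like the resistant ones.

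**Figure D4:**
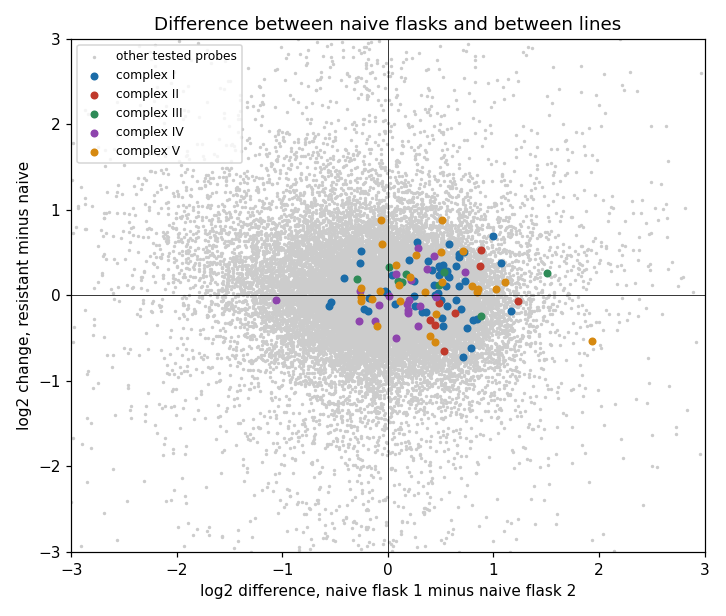
Log2 difference between the naive flasks (horizontal) and log2 change between the lines (vertical) for the tested probes within 3 units of 0 on both axes. Grey dots are other probes and coloured dots the 117 members by complex. The members lie mostly to the right of the vertical line (93 of 117) and on both sides of the horizontal one (66 above and 51 below).

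Other genes of the pathway were taken from fixed lists. The remaining electron transport subunits and carriers, among them cytochrome c and the electron transfer flavoproteins, had 0 of 15 probes called (3 at an unadjusted p below 0.05 by limma) and a median of -0.29. Over all probes they ran from -1.50 (SE 0.48, adjusted p = 0.19), on a second probe of CYCS, cytochrome c, to 0.67. With 1 probe per gene they ran from COQ10B, a ubiquinone-binding protein, at -0.69 (SE 0.23) to ETFDH, which passes electrons from fatty acid oxidation to ubiquinone, at 0.67 (SE 0.25). Assembly factors had 0 of 48 probes called (3 unadjusted) and a median of -0.14, with probes from -0.75 (LYRM7, a complex III factor) to 0.62. With 1 probe per gene they ran from COX19, a copper-handling factor of complex IV, at -0.71 (SE 0.39) to ATPAF2, an assembly factor of the ATP synthase head, at 0.62 (SE 0.23).

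The mitochondrial ribosomal proteins, which translate the mitochondrial subunits, had 0 of 109 probes called (7 unadjusted) and a median of -0.015, with probes from -0.95 to 0.93 (a second probe of MRPS11, SE 0.23, adjusted p = 0.11). With 1 probe per gene they ran from MRPS33 at -0.95 (SE 0.24) to MRPS25 at 0.64 (SE 0.39). ADP/ATP carriers, porins and uncoupling proteins had 0 of 17 probes called (2 unadjusted) and a median of -0.028. Among them SLC25A4, the ADP/ATP carrier known from heart and muscle, read 1.35 and 0.80 in the naive flasks and -0.17 and -0.20 in the resistant flasks, a change of -1.26 (SE 0.27, adjusted p = 0.075). The lines did not overlap, and under limma with an intensity trend it was called (adjusted p = 0.0474). The highest of that list was CKMT1A, a mitochondrial creatine kinase, at 0.18 (SE 0.59).

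In the citric acid cycle list, 1 of 27 probes was called, in the lower direction, and the median was -0.22. PC, pyruvate carboxylase, which refills the cycle with oxaloacetate, fell in the resistant line. It read 1.04 and 0.62 in the naive flasks and -1.50 and -1.22 in the resistant flasks at chr11:66616025-66616084 of hg19, a change of -2.19 (SE 0.26, adjusted p = 0.0124). The gap between lines was well beyond the spread of either line. The call was lost without resistant flask 1 (-2.05, adjusted p = 0.103) and without resistant flask 2 (-2.33, adjusted p = 0.0637), by the methods' t-test (adjusted p = 0.23) and under normexp background correction (-1.85, adjusted p = 0.65).

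Of the regulators of mitochondrial biogenesis, 1 of 26 probes was called, in the higher direction, and the median was 0.041. PPARGC1A, the coactivator that works with NRF1, GABPA and ESRRA on respiratory chain genes, was the called gene. It read -8.42 and -8.46 in the naive flasks, where it was not well above background, and -5.37 and -5.46 in the resistant flasks (adjusted p = 0.0025). With each naive array set to its dimmest probe well above background, the difference was 1.80-fold, less than the 2-fold of a call. The call thus rests on naive values that were not well above background. The second PPARGC1A probe was not well above background on any array. The call was lost under normexp background correction (0.65), also with bright local backgrounds reset (0.60), and by the methods' t-test (adjusted p = 0.13). Of the factors whose words are printed, NRF1 changed by -0.14 (SE 0.30), YY1 by 0.25 (SE 0.32) and GABPA by 0.56 (SE 0.22, adjusted p = 0.26), none of them called. ESRRA changed by -0.55 (SE 0.25, adjusted p = 0.31) and TFAM, the mitochondrial transcription factor, by -0.42 (SE 0.33).

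Member genes with and without the promoter words had like medians. The median change was -0.024 for the 4 genes with the NRF1 word and 0.090 for the 60 tested genes without it. For the ETS word it was 0.038 over 11 genes and 0.11 over 53, and for the YY1 word -0.025 over 12 and 0.081 over 52. The CCAATC word gave 0.070 over 13 genes and 0.051 over 51. Genes with the same word lay on both sides of 0, as NDUFA8 at -0.38 and NDUFB4 at 0.42 did for NRF1.

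**Figure D5:**
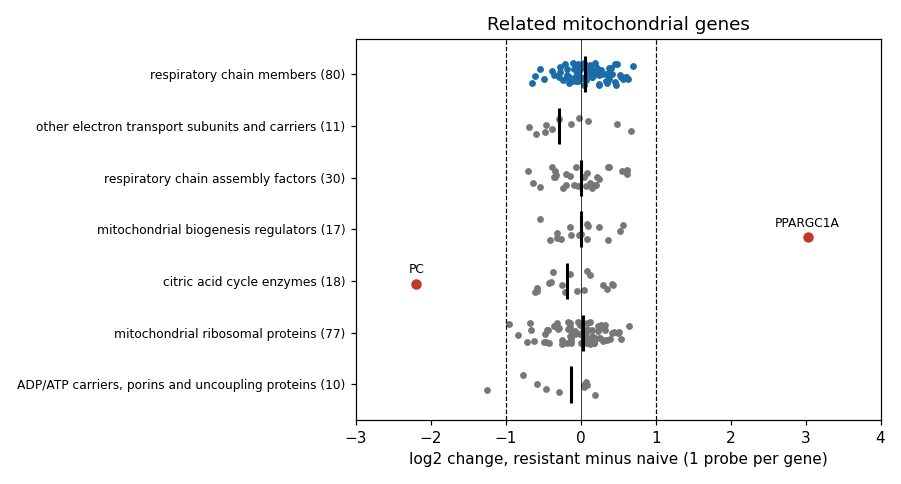
Log2 change (resistant minus naive) of the members and of related mitochondrial gene lists, 1 probe per gene with the number of genes in brackets. Black lines are medians, dashed lines mark 2-fold and red dots are called genes. PC at -2.19 and PPARGC1A are the called genes, and the fitted 3.03 of PPARGC1A rests on naive arrays where it was not well above background.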

How the data were processed

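Total RNA of 2 flasks of naive NB4 and 2 flasks of ATO resistant NB4 cells was measured on Agilent arrays with 1 colour. Scanned images were processed by the authors in Feature Extraction 10.5.1.1. Its deposited processed signal is a linear intensity from which the background had been subtracted. The deposited mean signal and median local background are intensities used for an alternative. A deposited table holds the authors' log2 values from GeneSpring, shifted by the 75th percentile of each array, which correlated with the values used here at 0.9998 or more on each array.

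In R 4.3.3, control spots and outlier spots were left out, spots of a probe were averaged, and log2 values were reduced by the 75th percentile of each array. Probes that were well above background in both flasks of either line (28216) were fitted with lmFit and eBayes of limma 3.58.1 without covariates, and p-values were adjusted by Benjamini-Hochberg over all of them. Calls needed an adjusted p below 0.05 and at least 2-fold. The fit was tested on simulated data. Arrays have no read depth, and their number limits the precision. Probes saturated on all arrays are given no fold.

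For each gene, the probe with the highest mean was taken. Named genes were those called, the 2 highest and 2 lowest changes per complex among probes not saturated and well above background on all arrays, complex II, isoform sets, and the called or extreme genes of each list. Other members were named for their role after their values were seen. Positions of probes come from the file header's build (hg19), and current names came from RefSeq accessions of GRCh38.p14 for 115 of 122 members. Members and lists were chosen with earlier results of these data known. Alternatives covered background correction, normalization, filters, saturation, the test, the pairing and each flask left out.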

Additional observations from a re-analysis of the deposited data

How the results depend on the processing

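The count of called members was 0 under all alternatives except leaving out a naive flask, and ranged from 0 to 3 over the flasks left out. The median member change ranged from -0.088 to 0.22 over the flasks left out, and it was 0.27 under scale normalization, with 90 members higher. With a replicate block 0 members were called, and 1374 of all probes (4.87%). Flasks of the 2 lines share only a number (correlation of same-numbered deviations 0.12). No probe of the whole array was called under normexp background correction or by the methods' t-test, which gave 2 members at an unadjusted p below 0.05.

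Single genes kept their direction and side of the threshold in 590 of 639 values, 7 lost a call, 9 gained one and 33 changed sign. The cause was not tested. Under normexp background correction the sign changed for ATP5G1 (-0.0761), COX4I2 (0.14), COX6B1 (-0.00516) and COX6B2 (0.0087), and with bright backgrounds reset for ATP5G1 (-0.0223) and CKMT1A (-0.0326). Under scale normalization it changed for ATP5G2 (0.18), COX4I1 (0.21), COX6A2 (0.0958), COX7A2L (0.0828), NDUFA4 (0.0871), SDHC (0.0593) and SDHD (0.068). Quantile normalization turned ATP5G2 (0.0606) and COX4I1 (0.0569), and the shift to the median turned ATP5G2 (0.00202) and COX4I1 (0.0324). Over the flasks left out, the changes ranged from -0.29 to 0.51 for ATP5G1, -0.12 to 0.033 for ATP5G2, -0.70 to 1.07 for CKMT1A, -0.17 to 0.15 for COX4I1, -0.59 to 0.48 for COX6A2, -0.0891 to 0.65 for COX7B, -0.40 to 0.16 for NDUFA4, -0.68 to 0.55 for SDHC, -0.33 to 0.15 for SDHD, -0.12 to 0.37 for UQCRC1 and -0.68 to 0.20 for UQCRQ. SLC25A4 was called in 3 alternatives, at -1.23 with bright backgrounds reset, -1.26 with an intensity trend and -1.53 without naive flask 2.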
